A study of Mus musculus with 12 samples.

Results

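Uninjured ears of the mouse strains LG/J and SM/J are compared here. The comparison uses 6 of the 12 arrays of the series, which are LG/J replicates 1, 3 and 4 and SM/J replicates 2, 4 and 5, chosen by their labels alone. LG/J and SM/J are inbred mouse strains that descend from separate lines selected for large and for small body size. LG/J is known for closing ear punch holes with new tissue, which SM/J does poorly. The labels give the strain and the tissue, normal ear, and name no treatment for these 6 arrays. They give neither age nor sex, nor do they state whether each array has an animal of its own. The p-values therefore measure only the spread between samples, which may be technical and is pooled over all 12 arrays of the series. The other 6 arrays hold ear tissue of both strains from day 7 after the punch.

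The ear pinna is a sheet of elastic cartilage between layers of skin, with hair follicles, sebaceous glands, pigment cells, nerve, vessels, fat and thin muscle at its base. Each sample is a mixture of these, and in such bulk tissue fewer cells of a type cannot be told apart from less RNA per cell. A bead array reads a transcript through a short probe designed on a reference sequence. Where an inbred strain carries a variant under a probe, the probe can bind less of that strain's transcript although the transcript is as abundant. For this reason differences are set beside those of a gene's other probes at many places below. Probe sequences and strain variants were not analysed here.

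Values are log2 intensities after background correction and quantile normalization over all 12 arrays, and a difference is LG/J minus SM/J. Its error is the standard error of limma's fit, with n = 3 arrays per strain, and a probe or gene is called at a Benjamini-Hochberg adjusted p under 0.05. With 3 arrays per strain the smallest two-sided p of an exact permutation test is 0.1, so the test rests on the spread pooled over all probes and all 4 groups. The 33960 probes left after removing the dimmest 25% were tested. They cover 14218 named genes, each read at its probe with the highest mean, and 10472 probes without a single gene name.

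Among the 6 arrays 1 of each strain stood apart. The first principal component took 69.2% of the variance and placed LG/J replicates 1 and 3 at 77.0 and 72.3 and SM/J replicates 4 and 5 at -65.1 and -64.7. LG/J replicate 4 lay at 4.84 and SM/J replicate 2 at -24.4. LG/J replicate 4 was over 1 log2 unit above the mean of the other LG/J arrays in 610 genes and below it in 450, whereas those other arrays differed from each other by that much in 37 genes. For SM/J replicate 2 the counts were 119 and 139, against 9 genes between the other SM/J arrays. On the 50 genes at least 8-fold apart between the strains at day 7, where SM/J at day 7 is set to 0 and LG/J at day 7 to 1, the medians were 1.02, 1.01 and 0.975 on the LG/J arrays and 0.0355, -0.0067 and -0.025 on the SM/J arrays. Each of the 6 arrays thus lay with its own label on these genes. Median raw intensity was 95.9 to 106 on the 6 arrays, and 52.7% to 55.0% of probes exceeded the background limit, which is estimated per array from the dim flank of the main signal peak.

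A further property of the arrays moved with strain. For the 5999 genes with 2 or more probes, the median gap between the brightest and the dimmest probe of a gene was 1.95, 1.94 and 1.79 log2 units on LG/J replicates 1, 3 and 4. On SM/J replicates 2, 4 and 5 it was 1.82, 1.64 and 1.63. At day 7 it was 1.89 to 1.94 in LG/J and 1.70 to 1.72 in SM/J. The brightest probes of these genes had a median strain difference of 0.11, with 1075 called higher and 704 lower in LG/J. The dimmest had a median of -0.04, with 490 called higher and 957 lower. The direction with more calls thus depended on which probe of a gene was read. The part of this dependence in the counts that follow was not tested.

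In uninjured ear 7326 probes were called, 21.6% of those tested, with 3736 higher and 3590 lower in LG/J. Among named genes 3717 were called, 26.1% of those tested. Of these, 2285 (16.1%) were higher in LG/J and 1432 (10.1%) were lower, and the median difference of all named genes was 0.11. This split is that of each gene's brightest probe, and the dimmest probes gave more lower than higher calls, as stated above. The 3 arrays of one strain all lay beyond those of the other for 3177 of the called genes, and such separation was seen in 34.1% of all named genes and 29.4% of all probes. Called differences of at least 2-fold numbered 437 higher and 513 lower, and those of at least 8-fold 25 and 19. The count depended on single arrays. Without LG/J replicate 4 it was 6286 genes (4027 higher, 2259 lower). Without LG/J replicates 1 or 3 it was 2025 or 1978, and without SM/J replicates 4 or 5 it was 1871 or 1941. With both LG/J replicate 4 and SM/J replicate 2 left out it was 6733. With the spread taken from the 6 uninjured arrays alone, 1441 genes and 2689 probes were called.

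**Figure D1:**
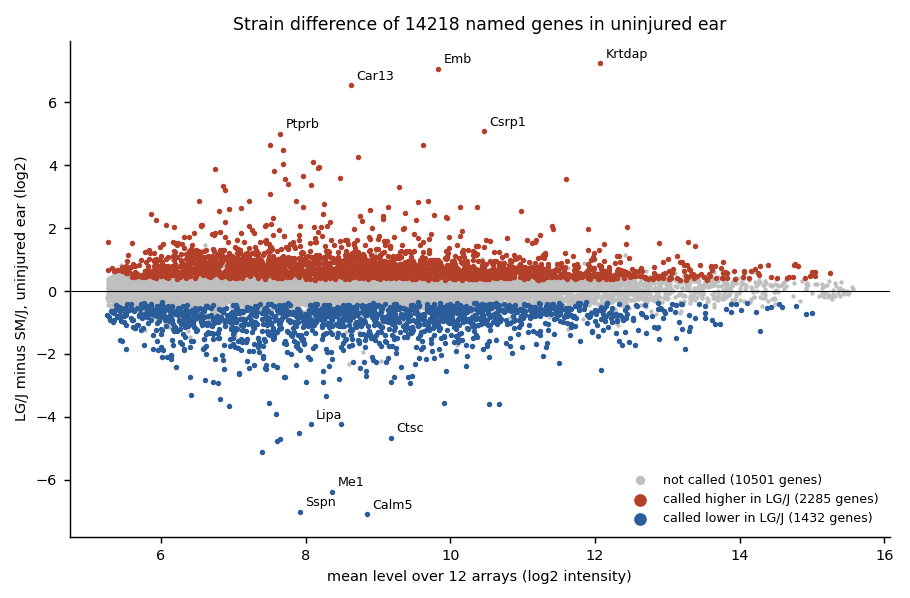
Strain difference in uninjured ear (LG/J minus SM/J, log2) against mean level over 12 arrays (log2 intensity), 1 point per named gene. The 2285 genes called higher in LG/J are red, the 1432 called lower are blue, genes with no call are grey, and Krtdap, Emb, Calm5 and Sspn lie about 7 log2 units from 0.

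The largest difference in favour of LG/J was in Krtdap, a small secreted protein of differentiating keratinocytes. Its brighter probe read 14.998, 15.14 and 15.23 on the LG/J arrays and 10.53, 6.41 and 6.69 on SM/J replicates 2, 4 and 5. The strains did not overlap, but SM/J replicate 2 stood far above the other SM/J arrays. The difference was 7.25 ± 0.79 (adjusted p = 4.12e-05). The other probe of Krtdap gave 13.52, 13.42 and 13.32 in LG/J and 7.34, 5.29 and 5.74 in SM/J, a difference of 7.29 ± 0.40 (adjusted p = 4.99e-08).

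Emb encodes embigin, a membrane partner of monocarboxylate transporters. It read 13.39, 13.28 and 13.85 in LG/J and 7.18, 6.07 and 6.03 in SM/J, a difference of 7.08 ± 0.27 (adjusted p = 8.65e-10). Car13, a cytosolic carbonic anhydrase, read 11.50, 11.68 and 11.82 in LG/J and lay below the background limit on all 3 SM/J arrays (5.42, 4.88 and 5.02). Where all arrays of a strain are below that limit only a lower bound of the fold is given, here at least 58.9-fold higher in LG/J (adjusted p = 7.62e-10). Csrp1, a LIM-domain protein of the actin cytoskeleton, read 13.001, 13.21 and 12.91 in LG/J and 8.41, 7.87 and 7.61 in SM/J (5.08 ± 0.18, adjusted p = 4.27e-10). In Emb, Car13 and Csrp1 every LG/J array was far above every SM/J array. Each of them has 1 tested probe, so the difference could not be set beside that of another probe.

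Ptprb, the receptor phosphatase of vascular endothelium, was at least 19.3-fold higher in LG/J. Reep3, a membrane-shaping protein of the endoplasmic reticulum, differed by 4.65 ± 0.26. Cldn12, a claudin, was at least 17.8-fold higher and Mettl14, a subunit of the RNA adenosine methyltransferase, at least 18.2-fold higher on its brighter probe. Armc10 and the solute carrier gene Slc35e3 differed by 4.27 ± 0.13 and 4.12 ± 0.13. Lefty1, an extracellular antagonist of Nodal, read 9.89, 10.02 and 9.39 in LG/J and lay at 5.72 to 5.73 on the 3 SM/J arrays, all below the limit, so that it was at least 15.8-fold higher. Ctr9, a subunit of the PAF1 transcription complex, was at least 7.32-fold higher, and Teddm3 differed by 3.95 ± 0.22. Adjusted p-values of these genes ran from 1.05e-10 (Cldn12) to 6.16e-08 (Reep3), and Reep3 was higher on SM/J replicate 2 (7.997) than on the other SM/J arrays (6.98 each). Among them Cldn12, Armc10 and Ctr9 have 1 tested probe each. Further probes of Ptprb, Reep3, Slc35e3, Lefty1 and Teddm3, where there are any, are not given here.

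On the other side, Calm5, a calmodulin relative, read 12.63, 12.27 and 12.36 on the SM/J arrays and lay below the limit on all LG/J arrays (5.37, 5.08 and 5.53). It was at least 98.9-fold lower in LG/J (adjusted p = 3.61e-12). Sspn, sarcospan of the dystrophin-glycoprotein complex, read 11.72, 11.63 and 11.73 in SM/J and 4.49, 4.92 and 4.63 in LG/J, at least 59.8-fold lower (adjusted p = 4.08e-11). Me1, the cytosolic malic enzyme that supplies NADPH for lipid synthesis, read 11.55, 11.82 and 11.68 in SM/J and 5.54, 5.48 and 4.89 in LG/J, at least 59.4-fold lower (adjusted p = 2.4e-11). These genes had no LG/J array above the limit, and each has 1 tested probe.

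Ctsc, cathepsin C, which activates the serine proteases of granulocytes, mast cells and killer lymphocytes, read 10.99, 10.82 and 11.09 in SM/J and 6.47, 6.73 and 5.72 in LG/J. The difference was -4.66 ± 0.22 (adjusted p = 7.65e-09), and on the gene's other probes, below the limit on all LG/J arrays, it was at least 13.9-fold and at least 11.4-fold lower in LG/J. Lipa, the lysosomal acid lipase that hydrolyses cholesteryl esters and triglycerides, read 10.32, 9.77 and 9.66 in SM/J and 5.66, 5.64 and 5.73 in LG/J. It was at least 17.5-fold lower in LG/J (adjusted p = 4.21e-08), and its other probe gave -3.39 ± 0.20. Zfp979, a zinc finger gene, was at least 17.7-fold lower on one probe and at least 14.2-fold lower on the other. All probes of these genes were thus low in LG/J.

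Further genes with low LG/J values included Cbwd1 (at least 18.2-fold), 1110059E24Rik (at least 20.3-fold) and 6330403K07Rik (-4.22 ± 0.18). Cavin1, a coat protein of caveolae, read 12.32, 12.61 and 12.55 in SM/J and 9.35, 9.31 and 8.02 in LG/J (-3.60 ± 0.28, adjusted p = 1.7e-06). Psmd8, a lid subunit of the proteasome, differed by -3.58 ± 0.16, Zcchc9 by -3.55 ± 0.17 and the kinase gene Oxsr1 by -3.90 ± 0.15. Lilrb4a, an inhibitory receptor of myeloid cells with a close relative that a probe may also bind, was at least 6.24-fold lower. Not all of these were backed by a further probe, and Cbwd1 and 6330403K07Rik have 1 tested probe each. Further probes of Psmd8, Zcchc9 and Lilrb4a, where there are any, are not given here. The other probe of Oxsr1 gave 0.21 ± 0.14 (adjusted p = 0.336), that of 1110059E24Rik -0.19 ± 0.19 near background (adjusted p = 0.534), and that of Cavin1 -1.04 ± 0.44 (adjusted p = 0.113).

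**Figure D2:**
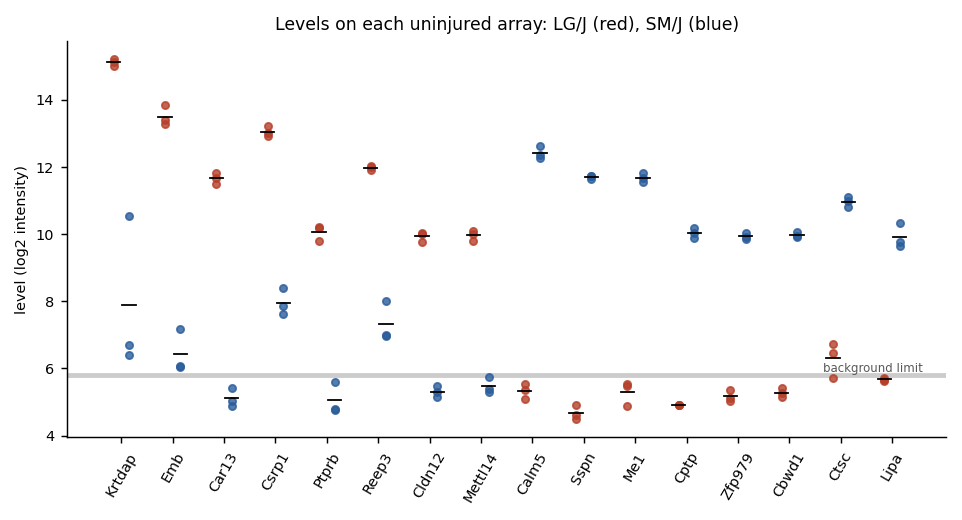
Level of 16 genes with large strain differences (log2 intensity) on each uninjured array, LG/J in red and SM/J in blue, with a black bar at the mean of 3 arrays. The grey band is the background limit of these arrays, and Calm5, Sspn, Me1, Cptp, Zfp979, Cbwd1 and Lipa lie below it in LG/J, as Car13, Ptprb, Cldn12 and Mettl14 do in SM/J.

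The promoters of 4 genes whose probes were all called in the same direction are shown, as examples of large differences shared by all probes of a gene. They are RefSeq sequences of build GRCm38.p6, which represents C57BL/6J and neither of the strains studied, and each is a window of 300 bases, mostly upstream of the annotated start, read 5′ to 3′ on the gene's strand. Capitals mark the TATA box motif TATAAA, the CCAAT box motif CCAAT and the GC box motif GGGCGG on either strand. Among 32851 mouse promoters of this length 13.6% hold TATAAA, 37.4% CCAAT and 35.7% GGGCGG. Krtdap lies at chr7:30787655-30787954 on the plus strand, Ctsc at chr7:88277835-88278134 on the plus strand, Lipa at chr19:34527425-34527724 on the minus strand and Zfp979 at chr4:147642459-147642758 on the minus strand.
Krtdap: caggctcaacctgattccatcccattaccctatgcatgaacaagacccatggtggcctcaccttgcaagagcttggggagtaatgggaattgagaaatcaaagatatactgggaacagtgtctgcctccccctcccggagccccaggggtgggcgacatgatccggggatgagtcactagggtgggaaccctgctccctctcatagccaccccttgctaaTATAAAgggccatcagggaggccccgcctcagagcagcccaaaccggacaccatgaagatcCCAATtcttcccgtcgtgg
Ctsc: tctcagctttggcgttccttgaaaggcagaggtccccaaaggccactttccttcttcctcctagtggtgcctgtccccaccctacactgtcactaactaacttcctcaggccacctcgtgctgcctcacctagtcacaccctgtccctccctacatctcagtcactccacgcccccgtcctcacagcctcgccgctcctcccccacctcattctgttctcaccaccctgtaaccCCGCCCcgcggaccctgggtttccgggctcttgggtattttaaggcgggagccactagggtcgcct
Lipa: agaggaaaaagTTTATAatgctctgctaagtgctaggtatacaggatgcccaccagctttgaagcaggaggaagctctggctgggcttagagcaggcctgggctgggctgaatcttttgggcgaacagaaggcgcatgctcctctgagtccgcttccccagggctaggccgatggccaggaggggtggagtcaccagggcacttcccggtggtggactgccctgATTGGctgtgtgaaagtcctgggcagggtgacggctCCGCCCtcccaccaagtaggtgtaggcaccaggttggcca
Zfp979: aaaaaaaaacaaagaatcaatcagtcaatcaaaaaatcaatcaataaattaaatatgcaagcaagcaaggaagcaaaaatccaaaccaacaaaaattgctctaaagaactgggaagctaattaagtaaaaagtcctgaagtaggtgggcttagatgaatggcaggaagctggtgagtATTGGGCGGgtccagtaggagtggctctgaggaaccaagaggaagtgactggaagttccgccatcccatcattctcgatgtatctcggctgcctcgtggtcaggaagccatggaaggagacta
Krtdap holds 1 TATAAA and 1 CCAAT, Ctsc holds 1 GGGCGG, Lipa holds 1 of each, and in Zfp979 a CCAAT on the opposite strand overlaps GGGCGG. These matches describe the reference letters only.

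How far probes of the same gene told the same story was counted over all 5999 genes with 2 or more tested probes. At least 1 probe was called in 2964 of them. In 411 (13.9% of the 2964) all probes were called the same way, 183 higher and 228 lower in LG/J. In 194 (6.55%) probes were called in opposite directions, and in 2359 some probes were called and others were not. With only probes above the background limit on all arrays of at least 1 strain, 449 of 2649 genes (16.95%) had all probes called the same way and 180 had opposite calls. Of 1033 genes with a called probe of at least 2-fold, 494 (47.8%) had another probe called the same way and 111 had one called the opposite way. Of 44 genes with any called probe of at least 8-fold and another probe to compare, 23 had another called the same way, 12 had one called the opposite way, and in 9 (20.5%) another probe showed at least 50% of its log2 difference. This is not the same set as the 44 genes of at least 8-fold by their highest-mean probe. Of those, 29 had 1 tested probe and 15 had 2 or more. The number of genes with all probes called the same way ran from 152 without SM/J replicate 4 or SM/J replicate 5 to 863 without LG/J replicate 4, and was 173 and 172 without LG/J replicates 1 and 3.

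Beside Krtdap, Ctsc, Lipa and Zfp979, the genes with the largest difference shared by all their probes were Psmb6, Col2a1, Klra22 and Ppp1cb. Psmb6, a catalytic subunit of the constitutive proteasome, read 13.24, 13.24 and 13.27 in LG/J and 10.02, 9.62 and 9.42 in SM/J on its brighter probe. Its probes gave 3.56 ± 0.16 and 5.37 ± 0.19 (adjusted p = 4.69e-09 and 4.41e-10). Col2a1, the main fibrillar collagen of cartilage, read 10.31, 10.57 and 10.68 in LG/J and 6.96, 7.08 and 7.56 in SM/J, and its 3 probes gave 3.32 ± 0.18, 3.07 ± 0.24 and 2.56 ± 0.21. In both genes all LG/J arrays lay above all SM/J arrays on every probe.

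Klra22, a Ly49 receptor of natural killer cells from a family with near-identical and strain-variable members, was at least 5.37-fold and at least 3.10-fold lower in LG/J on its 2 probes. Ppp1cb, a catalytic subunit of protein phosphatase 1, read 7.21, 7.07 and 10.53 in LG/J and 10.03, 11.59 and 11.38 in SM/J. LG/J replicate 4 lay among the SM/J arrays on both probes, so the strains overlapped. The difference was -2.73 ± 0.68 (adjusted p = 0.0135), and -3.86 (adjusted p = 2.67e-06) without that array. The call was lost without LG/J replicates 1 or 3 (-2.20 and -2.13) and without SM/J replicates 4 or 5 (-2.43 and -2.54).

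The widest disagreement between probes of a gene was in H2-D1, a classical MHC class I gene. Of its 4 probes, 1 read 11.88, 11.98 and 11.73 in LG/J and 5.87, 5.26 and 5.27 in SM/J (6.39 ± 0.16, adjusted p = 2.4e-11). Another read 8.93, 8.93 and 8.08 in LG/J and 12.09, 12.17 and 12.07 in SM/J (-3.46 ± 0.25, adjusted p = 7e-07). The 2 brightest gave -1.49 ± 0.18 and -0.997 ± 0.19. On each of these probes the strains did not overlap, yet the direction depended on the probe. H2-Ab1, the beta chain of an MHC class II molecule, differed by -5.94 ± 0.37 on 1 probe, which read 13.43, 13.58 and 13.47 in SM/J and 8.12, 8.13 and 6.42 in LG/J. Its brightest probe gave -0.12 ± 0.24 (adjusted p = 0.771) and the remaining one -1.37 ± 0.27.

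Other genes showed the same pattern outside the MHC. Fitm2, which acts in lipid droplet formation, gave 6.05 ± 0.24, -0.61 ± 0.19 and, on the brightest probe, 0.10 ± 0.13 (adjusted p = 0.63). Isca1, an iron-sulfur cluster assembly factor, was at least 43.4-fold lower in LG/J on 1 probe and differed by -0.49 ± 0.13 on the brighter one. Mgst1, a microsomal glutathione transferase, gave 5.33 ± 0.29 on its dimmer and -0.81 ± 0.26 on its brighter probe (adjusted p = 0.0389). Sri, the calcium-binding protein sorcin, gave 3.81 ± 0.13, -1.63 ± 0.15 and -0.50 ± 0.14. Cptp, a ceramide-1-phosphate transfer protein, was at least 19.0-fold lower on its brighter probe and 1.04 ± 0.19 higher on the other. For Mettl14 the dimmer probe, below the limit on all LG/J arrays, was at least 1.14-fold lower in LG/J (adjusted p = 0.0312). The brightest probe of Mgst1 lost its call under median scaling (-0.54), without LG/J replicates 1 or 3 (-0.63 each), without SM/J replicates 4 or 5 (-0.67 and -0.73) and without any day 7 array (-0.81). The calls of the brightest probes of Isca1 and Sri were lost under median scaling (-0.27 and -0.21) and without LG/J replicate 3 or SM/J replicates 4 or 5 (-0.47, -0.46 and -0.49 for Isca1, and -0.46, -0.47 and -0.45 for Sri), and that of Isca1 also without LG/J replicate 1 (-0.41).

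**Figure D3:**
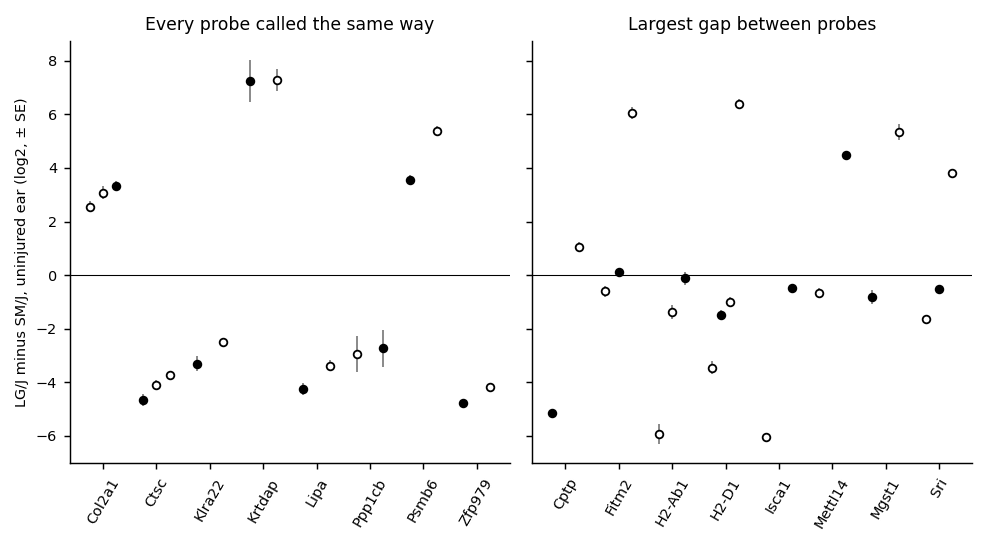
Strain difference in uninjured ear (LG/J minus SM/J, log2, ± SE of limma's fit) of every tested probe of 16 genes, probes below the background limit included, with the gene's highest-mean probe filled. In the left panel all probes of a gene lie on the same side of 0, and in the right panel those of H2-D1 run from -3.46 to 6.39.

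Some genes were above the background limit in 1 strain only. In 74 called genes all 3 LG/J arrays lay below the limit and all 3 SM/J arrays above it, and 75 genes had the reverse pattern. The day 7 levels were not part of this pattern, though the day 7 arrays shared the normalization, the pooled spread behind the calls and the choice of probe. On the day 7 arrays 40 of the 74 and 33 of the 75 had the same pattern, and 56 and 58 were called the same way. Of the 18 genes of the first kind that had another probe, 8 had another probe called the same way, and of the 18 of the second kind 7 did. The limit was set after the data were seen, and a probe below it gives only a bound.

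Gene lists of cell types and pathways were counted against the background of 16.1% of genes higher and 10.1% lower in LG/J. Because single arrays moved the number of calls, each list is also given as the range of its counts when 1 of the 6 uninjured arrays is left out. The number of calls was highest, in 3 lists jointly with the fit without SM/J replicate 2, without LG/J replicate 4 in every list but skeletal muscle, for which it was highest without SM/J replicate 2, and the sex-linked genes, which had no call. In the epidermal list of keratinocyte and cornified envelope genes 8 of 41 measured members were higher and 10 lower, with a median of 0.02. With 1 array left out they were 2 to 12 and 7 to 11. Apart from Krtdap, Krt1, the keratin of suprabasal epidermis, read 9.99, 10.32 and 10.46 in LG/J and 11.61, 12.02 and 12.27 in SM/J (-1.71 ± 0.20, adjusted p = 9.26e-05). Sprr1b, a small proline-rich protein of the cornified envelope, differed by -2.29 ± 0.30 (adjusted p = 0.000192). All LG/J arrays were below all SM/J arrays for both. Dsc1, a desmosomal cadherin, differed by -1.19 ± 0.40 (adjusted p = 0.0495), with LG/J replicate 4 (10.61) at the SM/J level. It was -1.86 without that array, and the call was lost without LG/J replicates 1 or 3 (-0.87 and -0.85), SM/J replicates 4 or 5 (-1.12 and -1.09) or any day 7 array (-1.19), with a normexp offset of 50 (-1.14) and with no background correction (-1.12).

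In the sebaceous gland and barrier lipid list 6 of 21 members were higher and 4 lower, with ranges of 3 to 8 and 1 to 6. The lipoxygenases of the epidermal barrier were among the higher genes. Alox12e read 12.22, 12.14 and 11.92 in LG/J and 10.70, 10.26 and 10.41 in SM/J (1.64 ± 0.23, adjusted p = 0.000329). Alox12b and Aloxe3 differed by 1.09 ± 0.24 (adjusted p = 0.00804) and 0.85 ± 0.18 (adjusted p = 0.00602). Plin2, a lipid droplet coat protein, differed the other way, by -1.54 ± 0.34 (adjusted p = 0.00688), with LG/J replicate 4 (11.09) just above SM/J replicate 2 (11.07). Of 21 hair keratin and follicle genes 3 were higher and 0 lower, with 1 to 5 higher when 1 array was left out, led by S100a3, a calcium-binding protein of the hair cuticle (1.62 ± 0.30, adjusted p = 0.00285). Among 21 wound keratin and alarmin genes 3 were higher and 4 lower (1 to 3 and 1 to 5), with Csta1, a cystatin A relative whose family members share sequence, at 1.56 ± 0.20 and the wound keratin Krt6a at -1.38 ± 0.30 (adjusted p = 0.00625) and, on its other probe, -1.43 ± 0.30.

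Skeletal muscle gave the most one-sided list. Of 51 members 27 were higher in LG/J and 0 lower, and the median was 0.78. Myl3 and Myl2, light chains of slow muscle myosin, differed by 3.81 ± 0.31 (adjusted p = 2.86e-06) and 3.65 ± 0.49 (adjusted p = 0.000246). Sln, sarcolipin, which regulates the calcium pump, differed by 2.68 ± 0.38, and Tnnc1, the troponin C of slow muscle, by 2.67 ± 0.34. Myl2 read 9.63, 10.91 and 9.90 in LG/J and 7.66, 5.71 and 6.11 in SM/J, with SM/J replicate 2 the highest of its strain. The list's median level relative to the SM/J mean was 0.47, 0.99 and 0.74 on the LG/J arrays, 0.84 on SM/J replicate 2, and -0.47 and -0.30 on SM/J replicates 4 and 5, so the strains overlapped through that array. Without SM/J replicate 2 there were 40 higher, without LG/J replicate 1 there were 20, without LG/J replicate 4 there were 26 higher and 2 lower, and without LG/J replicate 3 or SM/J replicates 4 or 5 there were 7. Whether the samples held unequal amounts of muscle was not tested. At day 7 the list had 8 of 51 higher and 0 lower, with a median of 0.37. Of all named genes 19.5% were called higher and 11.4% lower at day 7. The share of higher members was thus not above that of all genes.

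The smooth muscle and myofibroblast list held calls in both directions. In it 4 of 18 were higher and 2 lower (2 to 6 and 2 to 3), and the higher ones included Actc1, the cardiac actin also made in immature muscle (2.30 ± 0.37, adjusted p = 0.00104, and at least 2.09-fold higher on its other probe), and Tpm2, a tropomyosin (1.29 ± 0.29, adjusted p = 0.0073), which skeletal muscle expresses too. Tpm2 differed on its brightest probe alone, its other probes giving 0.20 ± 0.19 and 0.49 ± 0.19 with adjusted p = 0.513 and 0.0763. Across all 51 skeletal muscle members, 10 called genes had 2 or more probes and in 1 of them all probes were called the same way.

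**Figure D4:**
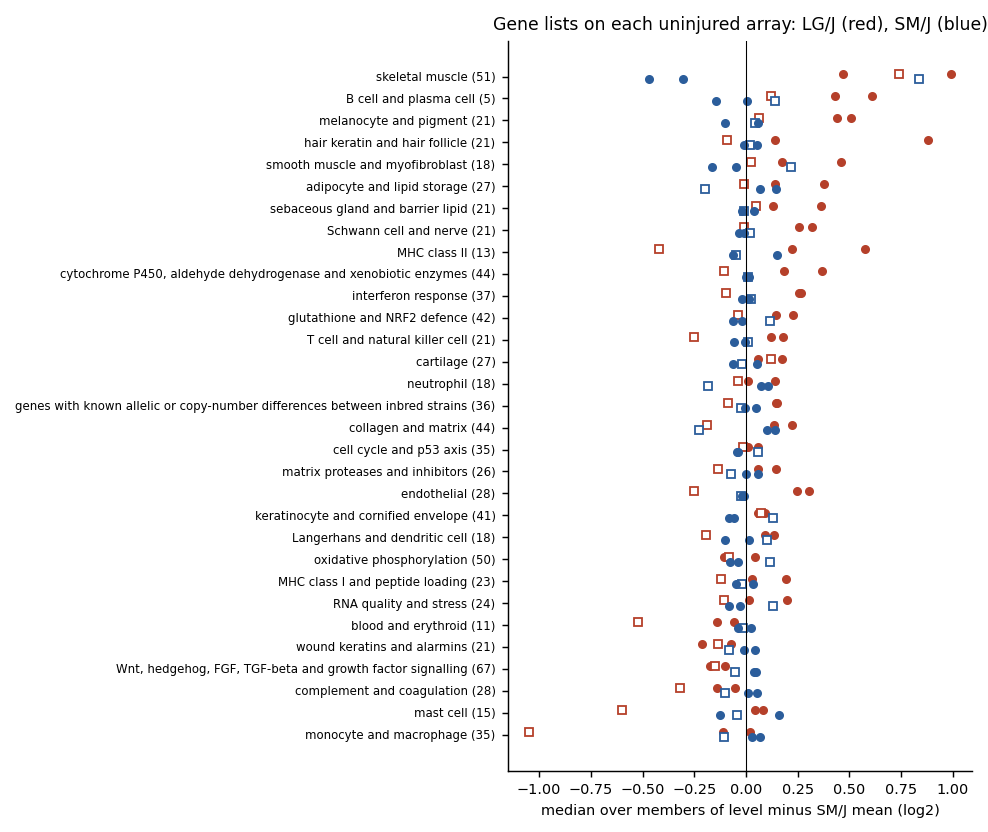
Median over the members of each gene list of level minus SM/J mean (log2) on each uninjured array, with the number of measured members in brackets. LG/J replicate 4 and SM/J replicate 2 are open squares and the other arrays filled circles, and SM/J replicate 2 lies among the LG/J arrays for skeletal muscle (0.84) while LG/J replicate 4 lies lowest for monocyte and macrophage genes (-1.05).

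Some pigment genes were higher in LG/J. In the melanocyte list 7 of 21 members were higher and 1 lower, the other 13 passing no test, with a median of 0.35 and ranges of 4 to 10 and 0 to 2. Pmel, the fibril protein of melanosomes, read 11.28, 11.40 and 9.95 in LG/J and 9.54, 9.57 and 9.41 in SM/J (1.37 ± 0.29, adjusted p = 0.00557), while its other probe gave -0.41 ± 0.25 (adjusted p = 0.283). Dct, dopachrome tautomerase of melanin synthesis, gave 1.20 ± 0.21 and 0.96 ± 0.18 on its 2 probes, with no overlap on either. Oca2, a melanosomal transport protein, differed by 1.10 ± 0.20 and Rab27a, which carries melanosomes, by 0.94 ± 0.12. The lower member was Kit, the stem cell factor receptor (-0.53 ± 0.16, and -1.003 ± 0.25 on its other probe), which mast cells also express and whose call was lost without LG/J replicates 1 or 3 (-0.58 and -0.51) or SM/J replicates 2 or 4 (-0.45 and -0.43) and under median scaling (-0.39). No tested probe carried the name of Tyr, the tyrosinase gene. The list's level was 0.51 and 0.44 on LG/J replicates 1 and 3, and 0.0632 on replicate 4, which lay just above the highest SM/J array (-0.101 to 0.0602).

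In cartilage 3 of 27 members were higher and 4 lower, with ranges of 1 to 5 and 1 to 7. Col2a1 was the largest, as given above, while Hapln1, the link protein of proteoglycan aggregates, read 7.08, 7.12 and 8.78 in LG/J and 8.94, 8.84 and 9.10 in SM/J (-1.30 ± 0.34, adjusted p = 0.0165, and -1.86 without LG/J replicate 4). That call was lost without LG/J replicates 1 or 3 (-1.01 and -1.03) or SM/J replicate 5 (-1.23). Chil1, a chitinase-like glycoprotein of cartilage and inflamed tissue, differed by -0.94 ± 0.14 (adjusted p = 0.000602). Col2a1 and these cartilage genes thus differed in opposite directions.

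The list of collagens and matrix proteins had 3 of 44 higher and 7 lower, with ranges of 1 to 12 and 3 to 9. Lum, the collagen-binding proteoglycan lumican, read 11.08, 11.85 and 12.99 in LG/J and 13.18, 13.69 and 13.66 in SM/J (-1.54 ± 0.35, adjusted p = 0.00813, and -1.52 ± 0.27 on its other probe). Lox, the collagen cross-linking oxidase, differed by -1.37 ± 0.31 (adjusted p = 0.00819). Fn1, fibronectin, differed by -1.66 ± 0.39 (adjusted p = 0.0102), a call lost without SM/J replicates 4 or 5 (-1.46 and -1.41), while its next probe gave -1.60 ± 0.21 (adjusted p = 0.00019) with no overlap. LG/J replicate 4 lay just below the SM/J arrays in Lum and within them in Lox (11.49 against 11.48 on SM/J replicate 2), and without it the differences were -2.05 and -1.84. Among 26 proteases and inhibitors 1 was higher and 1 lower (0 to 5 and 1 to 2), namely Mmp23 (0.80 ± 0.24) and Timp3, a matrix-bound metalloproteinase inhibitor (-0.71 ± 0.14, adjusted p = 0.00344, and -0.44 under median scaling). The other probes of Timp3 gave -2.72 ± 0.45 (adjusted p = 0.00124) and, at low level, 0.14 ± 0.15 (adjusted p = 0.569). The call of Mmp23 was lost without LG/J replicates 1 or 3 (0.79 and 0.50) or SM/J replicates 4 or 5 (0.79 and 0.75).

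Genes of Wnt, hedgehog, FGF, TGF-beta and other growth factor signals were lower in LG/J more often than higher, 14 against 5 of 67, with a median of -0.17. The counts were 19 and 9 without LG/J replicate 4, 15 and 5 without SM/J replicate 2, and 6 or 7 lower with 2 or 3 higher without any other uninjured array. Bmp5, a bone morphogenetic protein that shapes the ear pinna in mice, read 7.14, 7.04 and 7.30 in LG/J and 7.94, 8.45 and 8.32 in SM/J (-1.07 ± 0.15, adjusted p = 0.000289), with no overlap. Wif1 and Sfrp2, secreted Wnt antagonists, differed by -0.87 ± 0.21 (adjusted p = 0.0114) and -0.996 ± 0.28 (adjusted p = 0.0223). Fzd2, a Wnt receptor, differed by 1.15 ± 0.32 (adjusted p = 0.0225) and by 1.65 without LG/J replicate 4. The calls of Sfrp2 (-0.78 and -0.95) and Fzd2 (1.22 and 1.13) were lost without SM/J replicates 4 or 5, that of Sfrp2 under median scaling (-0.83), that of Fzd2 also without LG/J replicates 1 or 3 (0.93 and 0.87), and that of Wif1 without LG/J replicates 1 or 3 or SM/J replicate 5 (-0.66, -0.79 and -0.81). At day 7 the list had 11 higher and 7 lower, with a median of 0.08, so the excess of lower calls was not seen there. Of all named genes 19.5% were called higher and 11.4% lower at day 7.

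In the cell cycle and p53 list 4 of 35 were higher and 3 lower, with ranges of 2 to 6 and 0 to 9. Bub1b, a spindle checkpoint kinase, differed by 1.28 ± 0.15 (adjusted p = 7.43e-05), and its other probe by 0.31 ± 0.13 (adjusted p = 0.106). Cdkn1a, the p21 cell cycle inhibitor whose loss in mice permits ear hole closure, read 12.36, 11.95 and 11.38 in LG/J and 12.07, 12.36 and 12.17 in SM/J. The arrays overlapped and the difference was -0.31 ± 0.20 (adjusted p = 0.307). Its other probes gave -0.22 ± 0.23 and -0.29 ± 0.21 (adjusted p = 0.551 and 0.363), so none of its 3 probes passed the test. At day 7 the brightest gave -0.02 (adjusted p = 0.95).

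The endothelial list had 4 of 28 higher and 4 lower, with ranges of 1 to 11 and 1 to 4. Icam2, an adhesion molecule of resting endothelium, differed by 0.94 ± 0.18 (adjusted p = 0.00302). Lyve1, the hyaluronan receptor of lymphatic vessels, read 9.11, 9.04 and 9.06 in LG/J and 10.19, 10.29 and 10.43 in SM/J (-1.24 ± 0.12, adjusted p = 1.53e-05), with no overlap. In Schwann cells and nerve 6 of 21 were higher and 2 lower (1 to 7 and 1 to 3), with Gldn, gliomedin of the node of Ranvier, at 0.68 ± 0.12 (adjusted p = 0.00243) and S100b at -0.67 ± 0.16 (adjusted p = 0.0109, lost under median scaling at -0.53). The adipocyte list had 4 of 27 higher and 3 lower (2 to 7 and 0 to 4), with the lipid droplet coat Plin1 at 1.01 ± 0.23 (adjusted p = 0.00808) and the adipogenic factor Cebpa at -1.39 ± 0.35 (adjusted p = 0.0134), the latter lost without LG/J replicate 1 (-1.09) or SM/J replicates 4 or 5 (-1.11 and -1.22).

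The monocyte and macrophage list had 2 of 35 higher and 8 lower, with a median of -0.41 and ranges of 1 to 6 and 6 to 11. LG/J replicate 4 decided much of the median. The list's level was -0.11, 0.02 and -1.05 on the LG/J arrays and -0.11 to 0.07 on the SM/J arrays, and without replicate 4 the list had 6 higher and 8 lower with a median of -0.09. The largest members were Ctsc, described above, and Ccl2, the monocyte chemokine, which read 5.94, 6.01 and 5.75 in LG/J and 7.10, 7.94 and 7.89 in SM/J (-1.74 ± 0.22, adjusted p = 0.000187). Clec4d, a lectin receptor of macrophages, differed by -1.44 ± 0.23 and Fcgr2b, the inhibitory Fc receptor, by -1.07 ± 0.16 (adjusted p = 0.000979 and 0.000638). Of the other probes of Fcgr2b 1 gave -0.92 ± 0.15 and 1 lay below the limit on all arrays. Without replicate 4 the differences of Ccl2, Clec4d and Fcgr2b were -1.67, -1.25 and -1.06.

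Neutrophil genes went both ways, with 4 of 18 higher and 2 lower (3 to 6 and 2). Cxcr2, a chemokine receptor of neutrophils, read 7.47, 7.36 and 7.24 in LG/J and lay below the limit on all SM/J arrays, at least 2.97-fold higher (adjusted p = 2.99e-06). Mpo, the myeloperoxidase of neutrophil granules, differed by 1.25 ± 0.28 (adjusted p = 0.00729), with 2 further probes at 1.30 ± 0.31 and 1.23 ± 0.27 and 1 at 0.06 ± 0.17. S100a8, an alarmin of neutrophils and stressed keratinocytes, read 8.55, 8.09 and 9.27 in LG/J and 11.18, 11.40 and 10.90 in SM/J (-2.52 ± 0.26, adjusted p = 2.39e-05). Of 15 mast cell genes 2 were higher and 2 lower (1 to 4 and 1 to 3). Tpsab1, a mast cell tryptase, read 10.89, 11.24 and 9.71 in LG/J and 8.34, 8.27 and 7.99 in SM/J (2.41 ± 0.29, adjusted p = 0.000111), whereas Ms4a2, the beta chain of the IgE receptor, differed by -1.13 ± 0.20 (adjusted p = 0.00186).

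Among 21 T cell and natural killer genes 1 was higher and 3 lower (1 to 6 and 2 to 4). Cd3g, a chain of the T cell receptor complex, read 7.63, 8.05 and 6.37 in LG/J and 10.03, 9.77 and 9.60 in SM/J (-2.45 ± 0.31, adjusted p = 0.000182). Its partner Cd3e differed by -1.65 ± 0.37 (adjusted p = 0.00756), with LG/J replicate 4 the lowest array, and by -1.03 without it. The other probe of Cd3e gave -1.39 ± 0.35 (adjusted p = 0.0134). The co-receptor chain Cd8b1 differed by 0.77 ± 0.17 (adjusted p = 0.00793) on its brightest probe, while its other probes, 1 below the limit on all arrays and 1 on all SM/J arrays, were not called (adjusted p = 0.643 and 0.107). Of 5 B cell genes measured 1 was higher (1 to 3), Blk, a B cell kinase, with 1.16 ± 0.24 on its brighter probe and at least 1.27-fold higher on the other, which lay below the limit on all SM/J arrays. In the Langerhans and dendritic list 1 of 18 was higher and 1 lower (0 to 4 and 0 to 1). Siglech, a receptor of plasmacytoid dendritic cells (0.66 ± 0.22, and -0.17 ± 0.15 with no call on its other probe), lost its call without LG/J replicates 1 or 3 (0.66 and 0.55), SM/J replicates 4 or 5 (0.55 and 0.53) and 4 of the day 7 arrays (0.66). Batf3, a dendritic cell transcription factor (-0.73 ± 0.19), lost its call without LG/J replicate 1 (-0.62) or SM/J replicate 4 (-0.75). Its called probe lay below the limit on 2 LG/J arrays. The other probe of Batf3, below the limit on all LG/J arrays, gave -0.28 ± 0.17 (adjusted p = 0.273). In LG/J replicate 4 the T cell list read -0.25 and the mast cell list -0.60, where the other LG/J arrays read 0.12 to 0.18 and 0.04 to 0.08.

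MHC class I genes held calls in both directions. In the class I and peptide loading list 7 of 23 were higher and 4 lower, with a median of -0.05 (0.16 without LG/J replicate 4) and ranges of 5 to 8 and 3 to 5. H2-K1, a classical class I gene, differed by 2.47 ± 0.23 (adjusted p = 1.16e-05) on 1 probe, while its other 2 probes gave 0.12 ± 0.21 and -0.09 ± 0.26 (adjusted p = 0.749 and 0.846). H2-Q6 gave 2.68 ± 0.26 and 1.94 ± 0.30, and H2-Q8 gave 1.62 ± 0.28 and -1.09 ± 0.32. H2-Q7 gave -2.40 ± 0.30 and 0.25 ± 0.18 (adjusted p = 0.000134 and 0.375). These genes have near-identical copies and differ in sequence between haplotypes, so which gene a probe reports is uncertain. Of 7 called members with 2 or more probes, all probes were called the same way in 1 and opposite ways in 2. The class II list had 2 of 13 higher and 1 lower, with ranges of 0 to 7 and 0 to 1. Its lower member Ctss, cathepsin S, which trims the invariant chain, differed by -1.22 ± 0.34 (adjusted p = 0.0229), by -0.78 without LG/J replicate 4, and lost its call under median scaling (-1.04) and without SM/J replicates 4 or 5 (-1.11 and -1.33).

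Interferon response genes were called in 4 of 37 cases, 2 higher (0 to 5 with 1 array left out) and 2 lower. Ifi35 read 5.76, 5.89 and 5.40 in LG/J and 8.02, 8.13 and 8.30 in SM/J (-2.46 ± 0.21, adjusted p = 4.31e-06), and Ifi202b, whose level is known to vary between inbred strains, differed by -1.85 ± 0.25 (adjusted p = 0.00024), with another probe at background. Mx2, an antiviral GTPase with a variable gene structure in inbred strains, differed by 1.38 ± 0.37 (adjusted p = 0.0195), a call lost without LG/J replicates 1 or 3 (1.27 and 1.28) or SM/J replicates 4 or 5 (1.30 and 1.45). In complement and coagulation 2 of 28 were higher and 7 lower (1 to 6 and 3 to 8). F3, tissue factor, was at least 3.25-fold lower in LG/J (adjusted p = 2.15e-06), and C1s1, a protease of the first complement component, gave -1.48 ± 0.29 and -1.80 ± 0.28 on its 2 probes. Serpinf2, antiplasmin, was at least 2.28-fold higher on its brightest probe and at least 1.20-fold higher on another, and its remaining probe was not called (adjusted p = 0.16).

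Of 11 blood genes 1 was higher and 2 lower (1 to 2 and 2 to 3), and globin values depended on the probe. Hbb-b2 read 10.01, 10.11 and 8.31 in LG/J and 6.42, 5.74 and 6.18 in SM/J (3.37 ± 0.40, adjusted p = 8.48e-05). Of the 6 probes named Hbb-bs, 4 were called lower in LG/J, with differences from -1.01 ± 0.23 to -3.92 ± 0.21, and 2 were not called. Inbred strains carry different beta globin haplotypes with near-identical genes. Whether these differences come from the haplotypes or from unequal amounts of blood was not tested. Fech, the enzyme that inserts iron into haem, gave -1.53 ± 0.35 on its brightest probe (adjusted p = 0.00847), with LG/J replicate 4 (7.52) above SM/J replicate 2 (7.44) and the other LG/J arrays at 6.06 and 5.96. The other probes of Fech gave -1.10 ± 0.31, -0.74 ± 0.17 and 0.18 ± 0.18 (adjusted p = 0.0225, 0.00931 and 0.535).

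Metabolic genes differed in both directions. In the glutathione and NRF2 list 8 of 42 were higher and 9 lower, with ranges of 5 to 14 and 3 to 11. The glutathione transferase Gstm2 read 14.01, 14.10 and 13.94 in LG/J and 12.70, 12.25 and 12.46 in SM/J, and its 3 probes gave 1.55 ± 0.14, 1.63 ± 0.13 and 1.65 ± 0.16. Gsta3 gave -1.39 ± 0.12 and -0.57 ± 0.12 on its 2 probes and Gsta2 gave 1.27 ± 0.24. These families hold near-identical members. Nqo1, a quinone reductase under NRF2 control, read 6.77, 7.02 and 8.41 in LG/J and 8.48, 8.87 and 8.81 in SM/J (-1.32 ± 0.31, adjusted p = 0.00994), a call lost without LG/J replicate 3 (-1.13). Its other probe, near background, was not called (adjusted p = 0.136).

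Among 44 cytochrome P450, aldehyde dehydrogenase and other xenobiotic enzymes 10 were higher and 8 lower (8 to 17 and 5 to 8). Akr1c18, which inactivates progesterone, read 13.09, 12.80 and 13.18 in LG/J and 11.07, 11.12 and 10.94 in SM/J (1.98 ± 0.17, adjusted p = 4.91e-06). Aldh1a7 was at least 2.54-fold lower (adjusted p = 4.01e-05). Ugt1a1, a glucuronosyltransferase, and Cyp51, a sterol demethylase of cholesterol synthesis, differed by -1.80 ± 0.35 (adjusted p = 0.00368) and -1.69 ± 0.36 (adjusted p = 0.00635), with LG/J replicate 4 nearer to SM/J in both. In oxidative phosphorylation 4 of 50 were higher and 13 lower, 11 and 14 without LG/J replicate 4, and 1 and 5 or 6 without any other uninjured array but SM/J replicate 2 (7 and 8). The list's median was -0.03 and turned to 0.14 under median scaling. Atp5e, a subunit of ATP synthase, differed by -1.13 ± 0.18 (adjusted p = 0.000944) and Ndufb9, of complex I, by -0.77 ± 0.15 (adjusted p = 0.00331, lost under median scaling at -0.48).

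Genes that are known to vary in allele or copy number between inbred strains were counted as a list of their own, with 7 of 36 higher and 6 lower (4 to 10 and 4 to 6). Alad, the haem synthesis enzyme with a known copy number difference among mouse strains, read 13.81, 13.76 and 13.60 in LG/J and 11.53, 11.82 and 11.69 in SM/J (2.04 ± 0.14, adjusted p = 3.72e-07), with no overlap, and 2.30 at day 7. Nnt, the mitochondrial transhydrogenase that is partly deleted in some substrains, was low throughout, and of its 5 probes 1 passed (0.87 ± 0.14, adjusted p = 0.000976). Of the 6 called members of this list with 2 or more probes, 1 had all probes called the same way and 1 had opposite calls.

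Genes of RNA quality and handling stress were 4 higher and 4 lower of 24 (2 to 6 and 2 to 5). Fos, an immediate early gene, read 9.39, 7.86 and 8.69 in LG/J and 10.56, 10.56 and 11.98 in SM/J (-2.39 ± 0.60, adjusted p = 0.0141), and the call was lost without LG/J replicate 3 or SM/J replicate 5 (-1.996 and -1.92). Dusp1, another early gene, differed by -1.27 ± 0.30 (adjusted p = 0.00968, and -1.03 with no call without SM/J replicate 5). The probes of Actb, cytoplasmic actin, gave 0.86 ± 0.14, 1.67 ± 0.29, 1.71 ± 0.30, 0.22 ± 0.14 and -1.36 ± 0.44. On the last of these LG/J replicate 4 read 11.76 where the other LG/J arrays read 9.46 and 9.98. Xist, the RNA that coats the silenced X chromosome, was 12.02 to 13.23 on the 6 arrays and the Y-linked gene Uty was 6.25 to 6.64, and neither passed the test (adjusted p = 0.8 and 0.399).

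The day 7 arrays give the strain difference again in other samples, with the same probes, normalization and fit. A strain variant under a probe would be present at day 7 too. Shared calls therefore cannot tell a difference in probe binding from a difference in transcript level. At day 7 the same fit called 8541 probes (25.2%) and 4387 genes (30.9%). Of the 3717 genes called in uninjured ear, 2633 (70.8%) were called in the same direction at day 7, which is 60.02% of the day 7 calls, and 11 were called in the opposite direction. For probes the shared calls numbered 4779, or 65.2% of the uninjured and 56.0% of the day 7 calls. They numbered 8232 without LG/J uninjured replicate 4, 3098 without LG/J day 7 replicate 2, and 2683 to 2819 without uninjured LG/J replicates 1 or 3 or SM/J replicates 4 or 5. Among the 950 genes of at least 2-fold in uninjured ear 834 (87.8%) were called the same way at day 7 and 1 the opposite way. All 44 genes of at least 8-fold in uninjured ear were called the same way at day 7, and 34 were at least 8-fold there too.

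**Figure D5:**
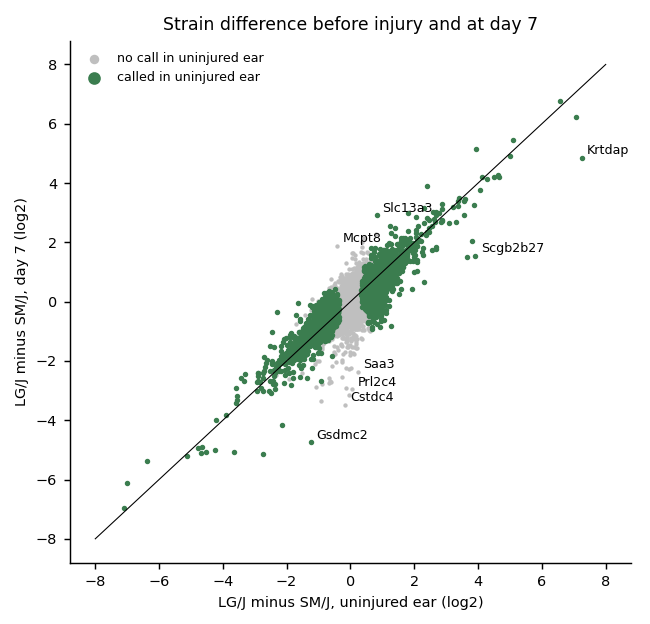
Strain difference at day 7 against strain difference in uninjured ear (both LG/J minus SM/J, log2), 1 point per named gene, with the line of equality and genes called in uninjured ear in green. Krtdap (7.25 in uninjured ear and 4.85 at day 7), Scgb2b27, Gsdmc2, Saa3, Prl2c4 and Cstdc4 lie away from the line.

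A direct test of whether the strain difference changed between uninjured ear and day 7, the interaction term of the fit, called 117 probes (0.345%) and 40 genes (0.281%), of which 36 genes had a lower and 4 (0.0281%) a higher LG/J minus SM/J difference at day 7. Among probes 10 (0.0294%) had a higher one. The number of probes ran from 17 without SM/J uninjured replicate 5 to 501 without SM/J uninjured replicate 2. Of the 40 genes 18 were also called in uninjured ear. Scgb2b27, a secretoglobin of a large gene family, was at least 11.4-fold higher in LG/J in uninjured ear and differed by 1.54 at day 7 (interaction adjusted p = 0.00252), and its other probe gave 1.35 ± 0.16 in uninjured ear. Krtdap shifted from 7.25 to 4.85 on its brighter probe, without passing that test (interaction adjusted p = 0.558). Gsdmc2, a gasdermin of epithelium, was below the limit on all LG/J uninjured arrays and read 6.16, 6.41 and 7.16 in SM/J. It was at least 1.72-fold lower in LG/J before injury (adjusted p = 0.0148, its fitted difference of -1.25 losing the call without LG/J replicate 3 or SM/J replicate 5 at -1.07 and -0.96, with no background correction at -0.75 and in the deposited series table at -0.75) and differed by -4.74 at day 7 (interaction adjusted p = 0.00804). Its other probe gave -0.56 ± 0.27 in uninjured ear (adjusted p = 0.161). Most genes with a strain difference in uninjured ear thus had no interaction call, as was so for most of all genes, of which 0.281% were called. The absence of a call does not show that a difference stayed the same.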

How the data were processed

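Ear RNA of 12 samples was read on Illumina mouse bead arrays of 45281 probes. The values used are the intensity per probe that the authors deposited for each array, and BeadStudio is named in the submitters' processing notes. The deposited files give no detection p-values or control probes, so the detection filter and control-based correction first planned could not be run. Intensities were corrected with normexp (offset 16), quantile normalized over the 12 arrays and taken to log2. The dimmest 25% of probes were removed. R 4.3.3 with the package statmod 1.5.0 ran the analysis, and limma 3.58.1 fitted 4 group means over all arrays. P-values were adjusted over all probes by the Benjamini-Hochberg method. The background limit is the 95% quantile of a normal curve fitted to the lower side of each array's signal mode and was chosen after the data were seen. Gene names came from the platform annotation, with 23604 probes of 1 name, 12 of several and 21665 of none.

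Named genes are the 15 with the largest called, non-overlapping difference each way, up to 4 called members of each list by size, the 8 genes with the widest gap between probes and the 8 with the largest difference shared by all probes, up to 6 interaction genes each way, and Cdkn1a, Xist and Uty as checks. Members and lists were chosen with earlier results of these data known. On simulated data of 33960 probes, changes were added to the LG/J uninjured arrays in 50 probes of each size. The fit recovered 10% of those changed by 0.5 log2 units, 70% at 1, 98% at 2 and 100% at 3, with 8 unchanged probes called. The simulation drew independent normal values around a common mean per probe. It had no array standing apart and far fewer changed probes than were called here, so these rates do not describe recovery on the real arrays. Alternatives covered background correction, scaling, the probe filter, the deposited series table, array weights, a replicate block, thresholds and leaving out arrays. The number of arrays limits precision.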

Additional observations from a re-analysis of the deposited data

Results flagged for a closer look

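Of the 40 genes in which the interaction term of limma's fit called a change, 11 are among the named genes. The term tests a change of the strain difference (LG/J minus SM/J, log2) between uninjured ear and day 7, given here as day 7 minus uninjured. In Cstdc4, a stefin A relative, the strain difference was lower at day 7 by -3.33, in Gsdmc2, a gasdermin, by -3.49, in Prl2c3 and Prl2c4, proliferin genes with near-identical copies, by -2.79 and -3.002, and in the secretoglobin Scgb2b27 by -2.37. These 5 genes were called in all 12 fits that leave out 1 array each. Cxcl2, a neutrophil chemokine (-3.08), and Saa3, an acute phase protein (-2.60), were called in 2 of the 12. The strain difference was higher at day 7 in Mcpt8, a basophil protease (2.30, called in 5 of 12), Slc13a3, a dicarboxylate transporter (2.08, called in 3), Grm4, a glutamate receptor (1.41, called in 2), and Prss46 (1.22, called in 2). In uninjured ear Cstdc4, Cxcl2, Mcpt8, Prl2c3, Prl2c4 and Prss46 lay below the background limit on all 6 arrays.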

How the results depend on the processing

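The counts are those of probes called, genes called, genes with all probes called the same way, probe calls shared with day 7, and interaction probes (7326, 3717, 411, 4779 and 117). With estimated array weights they were 15479, 7711, 1192, 9653 and 1623, without both LG/J replicate 4 and SM/J replicate 2 they were 13289, 6733, 943, 9025 and 2345, and at an adjusted p under 0.01 they were 3088, 1645, 129, 1860 and 14. With at least 2-fold asked as well, the first 4 were 2168, 950, 90 and 1471. The 6 uninjured and the 6 day 7 arrays were also fitted apart, on values normalized and filtered over all 12. The first 4 were then 2689, 1441, 110 and 2251, and these fits have no interaction. Median scaling gave 71 interaction probes. Leaving out 1 array gave 3464 to 12078, 1871 to 6286, 152 to 863, 2683 to 8232 and 17 to 501. With the replicate number as a block they were 3794, 1854, 177, 3161 and 14, and 53.6% of gene calls were higher in LG/J against 61.5%. The numbers pair no samples by the labels: over 10 pairs of arrays that share a number the correlations of deviations ran from -0.09 to 0.26, with 1 over 0.1. With 1 probe per gene no count over several probes was possible. The other settings moved these counts by at most 1.5 times, and the cause of the changes was not tested. Among 3834 pairs of a named gene and a setting, 315 lost a call, 1 gained one and none changed the direction of a call. The losses were uneven. The named genes and the pairs above include genes that had no call to lose, such as Cdkn1a, Xist and Uty. Of the 160 named genes, 51 lost their call with the uninjured arrays fitted apart and 31 with the replicate block. Without LG/J uninjured replicates 1 or 3 it was 34 and 35, and without SM/J uninjured replicates 4 or 5 also 34 and 35. Losses with the arrays fitted apart or with the block are not given gene by gene above. Precision is limited by 3 arrays per group and by signal near background.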

Other observations

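Genes that neighbour each other in the annotation were searched for runs of at least 3 tested genes that differed by at least 2-fold in the same direction, a search made after the values were seen. The search found 2 runs, both higher in LG/J. Kif1c, a kinesin, read 11.51, 11.27 and 11.30 in LG/J and 8.98, 9.26 and 8.90 in SM/J (2.31 ± 0.14), and its neighbours Zfp3 and Scimp, an adaptor of immune cells, differed by 1.16 ± 0.16 and 1.30 ± 0.22. Kif1c has dimmer probes called in opposite directions, 1 higher (adjusted p = 0.0291) and 1 lower in LG/J (adjusted p = 0.0112), and the other probe of Scimp was not called (adjusted p = 0.181). Kremen2, a Dickkopf receptor, and its neighbours Flywch1 and Flywch2 differed by 1.15 ± 0.17, 1.20 ± 0.24 and 1.21 ± 0.15. On the probes with these differences all 6 genes were called the same way at day 7. Among 25 genes at least 8-fold higher in LG/J at day 7, SM/J replicate 2 was the highest uninjured SM/J array in 19, by a median of 0.37 log2 units above the others.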
